A study of Mus musculus with 6 samples.

Results

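Glutathione S-transferases were described here by 10 genes of 6 classes: Gsta3 and Gsta4 (alpha), Gstm1, Gstm2 and Gstm5 (mu), Gsto1 (omega), Gstp1 (pi), Gstt1 (theta), and Mgst1 and Mgst3 (microsomal). They were taken by gene symbol, without use of measured values, and all 10 had a row among the 19865 gene symbols of the count tables. The cells were primary lung fibroblasts from Col1a2-GFP transgenic mice of strain C57BL/6, in which a collagen promoter drives a green reporter. A retrovirus marked by hLNGFR carried either a control vector or trSrebf1, the active form of Srebf1c. All recipients were C57BL/6 mice given 2 mg/kg of bleomycin, which injures the lung; the cells were instilled on day 5, doxycycline was recorded for both groups on day 7 to switch trSrebf1 on, and donor cells were sorted back on day 10 as GFP+ hLNGFR+ cells without markers of endothelium, leukocytes, epithelium or red cells. Each of the 6 libraries, 3 control and 3 trSrebf1, came from 10000 sorted cells and was read by 3'SAGE-seq, which counts short tags near transcript 3' ends.

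Glutathione S-transferases join glutathione, the main small thiol of the cell, to electrophiles such as lipid aldehydes, drugs and quinones, so that the conjugate can be exported. The cytosolic classes are soluble dimers, and the microsomal proteins are unrelated in sequence, sit in membranes, and in part also act as peroxidases on lipid hydroperoxides. Several of the genes are known targets of the stress-responsive transcription factor NRF2, which binds antioxidant response elements. Srebf1 encodes a factor that switches on lipid synthesis, and the comparison shows how this detoxification family stood when that factor was active.

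Library totals ran from 3675146 to 4688196 counts, of which the 10 members took 3301 to 4607. Expression is given as CPM, tag counts scaled to a common library size with TMM factors, and genes were tested with edgeR's quasi-likelihood test with Benjamini-Hochberg adjustment over 10194 genes, at a two-sided threshold of 0.05. Srebf1 tags, the check of the labels, stood at 5.16 to 8.39 CPM in control and 24.7 to 31.2 CPM in trSrebf1 libraries. They may come from the endogenous gene or the truncated transgene, and exons of Srebf1 overlap Rai1 on the opposite strand over 109 bases. The labels do not say whether replicates came from separate mice or cultures, so each p-value is set against a spread among libraries that may be technical only. Ctsd, a lysosomal protease gene, took 0.86% to 0.953% of control and 6.53% to 6.81% of trSrebf1 counts, a shift in composition that the alternative without Ctsd addresses.

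The mu class held the 2 clearest changes, in opposite directions. Gstm1 rose 3.52-fold and Gstm2 fell 2.04-fold, while Gstm5, which gave most of the members' tags, showed no difference past the threshold. Over the family, 7 of 10 members had enough counts to be tested, and 1 of these 7 was higher and 2 were lower in trSrebf1, with 4 not called. Among all tested genes 30.2% were called, 17.2% higher and 13% lower, so the 42.9% called among the 7 tells nothing particular about the family. The median log2 fold change was -0.48 over the 7 and -0.01 over all tested genes. For 5 of the 7, all libraries of 1 group lay above all of the other, as was so for 43.4% of all tested genes.

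**Figure D1:**
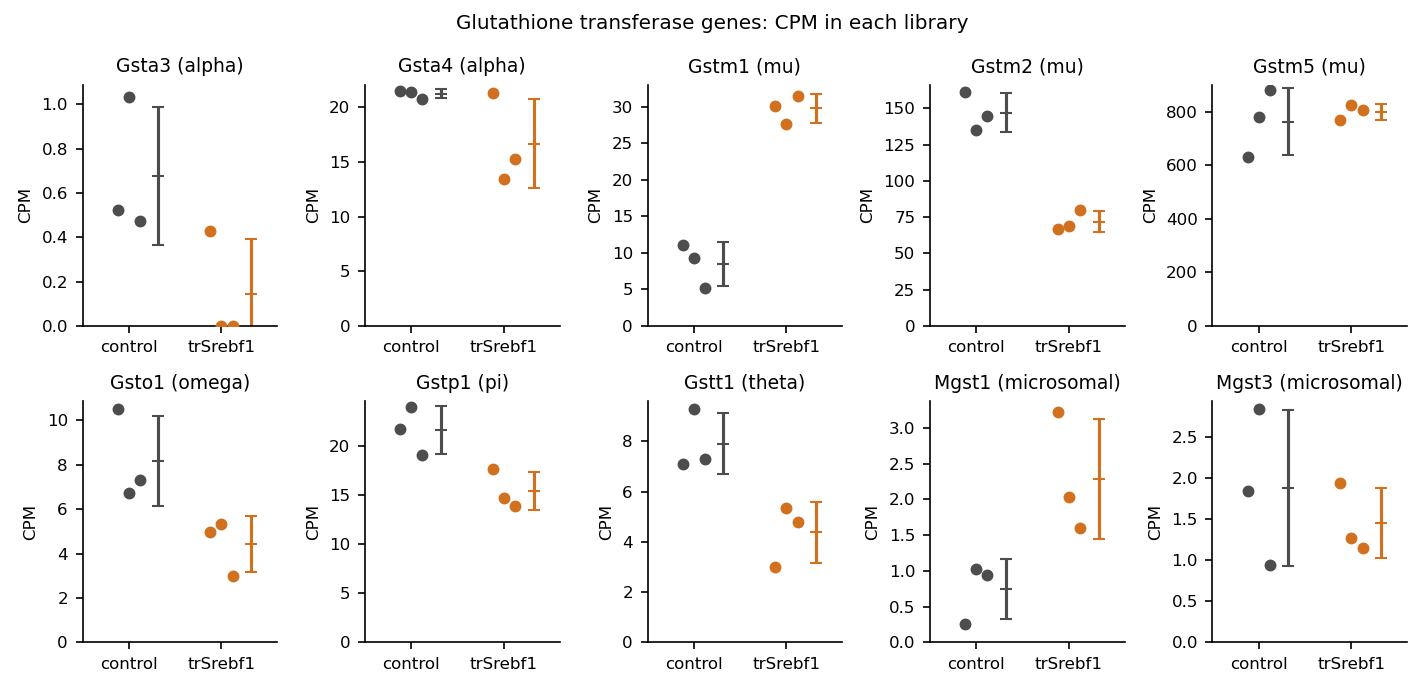
CPM of each of the 10 members (vertical axes, linear, each with its own scale from 0) in the 3 control (grey) and 3 trSrebf1 (orange) libraries; points are libraries, and the side marks give the mean and SD, with the lower end for Gsta3 hidden below 0. Gstm1 lies above 27 CPM in every trSrebf1 library and at most at 11.0 in control, whereas Gstm2 lies at 79.9 or less in trSrebf1 and at 135 or more in control.

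Gstm1 encodes a mu-class enzyme with broad activity on electrophiles, and lies on chromosome 3 from 108012255 to 108017973 on the minus strand (ENSMUSG00000058135.12, mm10). Its tags numbered 42, 36 and 22 in control libraries 1 to 3, and 140, 109 and 138 in trSrebf1 libraries 1 to 3. On the CPM scale this was 11.0, 9.29 and 5.19 against 30.1, 27.7 and 31.5. Every trSrebf1 library was above every control library, and the spread was wider within control (CV 35.2%) than within trSrebf1 (6.56%). The log2 fold change was 1.82 (SE 0.24, adjusted p = 1.26e-05), from 8.50 ± 2.99 to 29.8 ± 1.95 CPM (SD, n = 3 each). The call held under all alternatives run, with log2 fold changes of 1.53 to 2.05. Of the 25-base words in the last 300 bases of its protein-coding transcripts, 34.3% also occur in transcripts of other genes, mostly Gstm3. The 4 other mu genes in the tables, Gstm3, Gstm4, Gstm6 and Gstm7, together held 0 to 9 counts per library, so tags credited to them were few, but tags shared among these genes could have been assigned to Gstm1.

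Gstm2, a mu-class enzyme next in the same cluster, lies 25801 bases from Gstm1 on the same strand (chromosome 3, 107981702 to 107986453, ENSMUSG00000040562.12). It stood at 162, 135 and 145 CPM in control libraries 1 to 3 and at 67.1, 68.5 and 79.9 CPM in trSrebf1 libraries 1 to 3. The groups were far apart, with the lowest control value well above the highest trSrebf1 value. Gstm2 fell by 1.03 on the log2 scale (SE 0.13, adjusted p = 5.49e-06), from 147 ± 13.6 to 71.9 ± 7.04 CPM (SD, n = 3 each), on 1751 control and 932 trSrebf1 counts. All alternatives kept the call, within -1.12 to -0.96. The ratio of Gstm2 to Gstm1 CPM, a quantity set up after both values were seen, was 14.7, 14.5 and 27.9 in control and 2.23, 2.48 and 2.54 in trSrebf1. Gstm2 tags thus outnumbered Gstm1 tags in each library, by far less in trSrebf1.

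Gstm5, the mu-class gene on the other strand of the cluster (chromosome 3, 107895821 to 107898686, ENSMUSG00000004032.10), lies 83015 bases from Gstm2. Its CPM was 630, 779 and 880 in control libraries 1 to 3 and 767, 827 and 807 in trSrebf1 libraries 1 to 3. The trSrebf1 values all lie within the control range. The log2 fold change was 0.07 (SE 0.12, adjusted p = 0.707, 95% interval -0.18 to 0.32), which leaves out a change as large as that of Gstm1 or Gstm2 in either direction. The sign of this small value turned under upper-quartile factors (-0.013), with total counts (-0.0071) and without control replicate 1 (-0.048). The control libraries differed from each other more than is usual for an abundant gene. The control CV of Gstm5 was 16.5% where the median was 8.97% over the 1388 genes with a mean of 100 CPM or more, and 15% of these genes had a higher one. In trSrebf1 the CV was 3.78% against a median of 7.52%. Exons of Gstm5 overlap a noncoding gene on the opposite strand, 4933431E20Rik, over 178 bases, and whether counting used strand is not given in the sources used here.

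The 250 bases upstream of the start sites are shown for the 3 genes called and for Gstm5, to set neighbouring mu genes that moved apart side by side. The windows are from RefSeq (GRCm38.p6), read 5′ to 3′ on the strand of the gene: chr3:108017974-108018223 (minus) for Gstm1, chr3:107986421-107986670 (minus) for Gstm2, chr3:107895604-107895853 (plus) for Gstm5 and chr19:47854723-47854972 (plus) for Gsto1. Capitals mark matches on either strand to 4 motifs: TGACNNNGC, the antioxidant response element core; GCGTG, the aryl hydrocarbon receptor core; TCACNCCAC, a sterol regulatory element; and CACGTG, an E-box.
Gstm1: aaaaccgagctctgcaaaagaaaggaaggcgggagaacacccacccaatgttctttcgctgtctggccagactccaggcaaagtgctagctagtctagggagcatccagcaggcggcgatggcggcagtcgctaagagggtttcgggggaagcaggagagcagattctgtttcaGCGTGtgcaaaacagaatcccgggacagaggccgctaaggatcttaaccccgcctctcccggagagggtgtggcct
Gstm2: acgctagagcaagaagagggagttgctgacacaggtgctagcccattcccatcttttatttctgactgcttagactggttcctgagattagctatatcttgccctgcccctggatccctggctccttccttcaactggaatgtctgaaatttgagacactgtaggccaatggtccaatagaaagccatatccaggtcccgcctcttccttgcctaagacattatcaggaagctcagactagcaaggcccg
Gstm5: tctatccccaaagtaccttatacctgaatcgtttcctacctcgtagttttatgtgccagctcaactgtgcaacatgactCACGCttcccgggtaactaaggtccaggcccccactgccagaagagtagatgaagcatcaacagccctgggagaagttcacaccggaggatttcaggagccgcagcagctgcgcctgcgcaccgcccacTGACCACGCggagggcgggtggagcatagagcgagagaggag
Gsto1: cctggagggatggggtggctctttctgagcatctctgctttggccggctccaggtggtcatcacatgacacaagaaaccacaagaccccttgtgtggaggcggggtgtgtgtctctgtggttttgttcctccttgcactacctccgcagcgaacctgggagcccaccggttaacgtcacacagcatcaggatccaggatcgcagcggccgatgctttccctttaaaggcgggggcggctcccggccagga
Gstm1 held 1 match to GCGTG, which also lies in the window of its other RefSeq start site; Gstm5 held 1 match to TGACNNNGC and 2 to GCGTG, of which 1 overlaps the TGACNNNGC match; Gstm2 and Gsto1 held no match. Windows were found for 9 of the 10 members, all but Gsta4. TGACNNNGC was found upstream of 3 of these 9, Gsta3, Gstm5 and Mgst1, and in 10.2% of all 32851 windows. GCGTG was found for 4, Gstm1, Gstm5, Gstp1 and Mgst3, and in 28.2% of all windows. TCACNCCAC and CACGTG were found upstream of 0 of the 9 and in 1.05% and 6.02% of all windows. Whether any match relates to the changes in expression was not tested, and bases beyond these windows were not searched. A match is a string of letters and not a shown binding site.

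Gsto1 (chromosome 19, 47854970 to 47864790, ENSMUSG00000025068.8) encodes the omega-class enzyme, which favours reduction and thiol transfer over conjugation. It stood at 10.5, 6.71 and 7.31 CPM in control libraries 1 to 3 and at 4.95, 5.33 and 2.97 CPM in trSrebf1 libraries 1 to 3. The groups did not overlap, although the lowest control and highest trSrebf1 libraries were close. Gsto1 fell by 0.88 on the log2 scale (SE 0.33, adjusted p = 0.0489), from 8.17 ± 2.03 to 4.42 ± 1.27 CPM (SD, n = 3 each), on 97 and 57 counts. This call lies at the threshold. DESeq2 gave an adjusted p of 0.0974, a fit with no filter on low counts 0.0584 and one with the replicate number as a block 0.0566. The call also went when control library 1 (0.192), 2 (0.0520) or 3 (0.0623) was dropped, or trSrebf1 library 1 (0.0794) or 3 (0.191). Across alternatives the adjusted p spanned 0.0306 to 0.192.

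Gstt1 (chromosome 10, 75783813 to 75798584, ENSMUSG00000001663.10), a theta-class enzyme that acts on small halogenated compounds, lay on the other side of the threshold. Its CPM was 7.08, 9.29 and 7.31 in control libraries 1 to 3 and 3.01, 5.33 and 4.80 in trSrebf1 libraries 1 to 3. All trSrebf1 libraries were below all control libraries. The log2 fold change of -0.86 (SE 0.32) was not called (adjusted p = 0.0503, unadjusted 95% interval -1.52 to -0.19). The threshold was passed with RLE factors (adjusted p = 0.0485), upper-quartile factors (0.0310), total counts (0.0353), limma-voom (0.0430), the filter of 5 CPM in 3 libraries (0.0421), Ctsd left out (0.0453) and trSrebf1 library 2 dropped (0.0460). Across alternatives the adjusted p spanned 0.0310 to 0.198. Gsto1 and Gstt1 therefore had like values and like precision, and their calls differ only by which side of 0.05 they fell on.

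Gstp1 encodes the pi-class enzyme, which besides conjugation is known to bind and restrain stress kinases. It lies on chromosome 19 from 4035407 to 4037985 (ENSMUSG00000060803.6), 2299 bases from its copy Gstp2, and 85.1% of the 25-base words at its transcript ends occur in Gstp2. Tags can therefore be split between the pair in ways the tables do not show. Gstp1 stood at 21.8, 24.0 and 19.1 CPM in control libraries 1 to 3 and at 17.6, 14.7 and 13.9 CPM in trSrebf1 libraries 1 to 3. The groups did not overlap, but its difference of -0.48 on the log2 scale (SE 0.20) was not called (adjusted p = 0.0775), except with upper-quartile factors (adjusted p = 0.0352). Gstp2, which is not a member, differed by -0.63 on the log2 scale (SE 0.24, adjusted p = 0.0582, spanning 0.0256 to 0.231). Its threshold was passed with upper-quartile factors (0.0321), total counts (0.0367), limma-voom (0.0418), the filter of 5 CPM in 3 libraries (0.0489) and with trSrebf1 library 2 dropped (0.0256). With the counts of the pair summed, a step added after seeing the data, the values were 37.2, 39.2 and 34.4 CPM in control and 27.3, 27.4 and 21.5 CPM in trSrebf1. The summed pair fell by 0.54 on the log2 scale (SE 0.17, adjusted p = 0.0195).

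Gsta4 encodes the alpha-class enzyme best known for conjugating 4-hydroxynonenal, an aldehyde formed when lipids are oxidised (chromosome 9, 78182774 to 78209349, ENSMUSG00000032348.6). It stood at 21.5, 21.4 and 20.8 CPM in control libraries 1 to 3, the tightest group of any member, and at 21.3, 13.4 and 15.3 CPM in trSrebf1 libraries 1 to 3. trSrebf1 replicate 1 lay within the control range and the other two lay below it. The log2 fold change was -0.34 (SE 0.21, adjusted p = 0.244, 95% interval -0.78 to 0.10), and no alternative called it (0.0836 to 0.547).

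The remaining 3 members were near the detection limit and did not pass the filter on low counts. Gsta3, an alpha-class enzyme abundant in liver, had 2, 4 and 2 counts in control and 2, 0 and 0 in trSrebf1. The ratio of control to trSrebf1 was 4.35 with a counting interval of 0.868 to 42.0 (exact, 95%), and 0 counts in 1 library allow up to 0.761 CPM in trSrebf1 replicate 2 and 0.685 CPM in trSrebf1 replicate 3. Mgst1, the membrane enzyme that protects endoplasmic reticulum and mitochondria from lipid peroxides, had 1, 4 and 4 counts in control and 15, 8 and 7 in trSrebf1. That is a ratio of 3.07 (counting interval 1.42 to 7.34), from 0.746 ± 0.42 to 2.29 ± 0.84 CPM (SD, n = 3 each), with no overlap between groups. Without the filter Mgst1 was still not called (log2 fold change 1.58, SE 0.69, edgeR adjusted p = 0.108). Mgst3, a membrane enzyme related to leukotriene C4 synthase, had 7, 11 and 4 counts in control and 9, 5 and 5 in trSrebf1, a ratio of 0.794 (counting interval 0.407 to 1.54). These intervals and limits cover counting error only, since amplified tags carry no molecular identifiers.

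Tags of the club cell markers Scgb1a1 and Cyp2f2 were highest in 1 library. In trSrebf1 replicate 1 the secretoglobin gene Scgb1a1 had 15 counts and Cyp2f2 had 7, whereas the other 5 libraries had 0 to 2 counts of Scgb1a1 and 0 of Cyp2f2. The same library, the deepest at 4688196 counts, held both trSrebf1 counts of Gsta3, the highest count of Mgst1 and the highest trSrebf1 value of Gsta4. In the other 5 libraries, with few or no tags of these markers, both genes varied. Gsta3 had 2, 4 and 2 counts in control and 0 and 0 in trSrebf1 replicates 2 and 3. Mgst1 had 1, 4 and 4 counts in control and 8 and 7 in those trSrebf1 replicates. Over the 6 club and ciliated markers in the tables the sums were 124 to 209 CPM in control and 158 to 222 CPM in trSrebf1, most of it from Tppp3, which was not called. The ciliated cell factor gene Foxj1 had 3, 3 and 1 counts in control and 34, 23 and 24 in trSrebf1 and was called higher. The part of such cells in these values was not tested. Alveolar epithelial markers summed to 19.1 to 34.1 CPM in control and 16.2 to 44.7 CPM in trSrebf1, and Epcam had 0 or 1 count in each library. Endothelial markers summed to 195 to 221 CPM in control and 169 to 182 CPM in trSrebf1, most of it from Ecscr, which was not called. Of that list Pecam1 had 0 or 1 count in each library, whereas Egfl7 had 2, 3 and 2 counts in control and 32, 29 and 25 in trSrebf1 and was called higher (log2 fold change 3.43, SE 0.46, adjusted p = 1.79e-05). Fibroblast markers summed to 43704 to 56233 CPM in control and 31469 to 36208 CPM in trSrebf1, with 8 of 10 lower, Col1a1 not called and Pdpn not called. Macrophage markers, of which 7 of 10 symbols had a row, summed to 8.02 to 47.5 CPM in control and 3.23 to 18.3 CPM in trSrebf1. Most of this came from C1qa, which was not called. It stood at 43.0, 12.1 and 7.55 CPM in control and 2.37, 5.84 and 16.4 CPM in trSrebf1. Pericyte and smooth muscle markers summed to 221 to 236 CPM in control and 353 to 409 CPM in trSrebf1, but of 9 tested 3 were higher and 5 lower, with a median log2 fold change of -1.12. Cspg4 (16.4 to 121 CPM), Pdgfrb (78.6 to 143 CPM) and Des rose, while Cnn1, Lmod1, Kcnj8, Abcc9 and Myh11 fell; Abcc9 was called in 11 of 14 alternatives and Myh11 in 10 of 15. In these bulk libraries fewer cells of a type and less RNA per cell cannot be told apart.

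**Figure D2:**
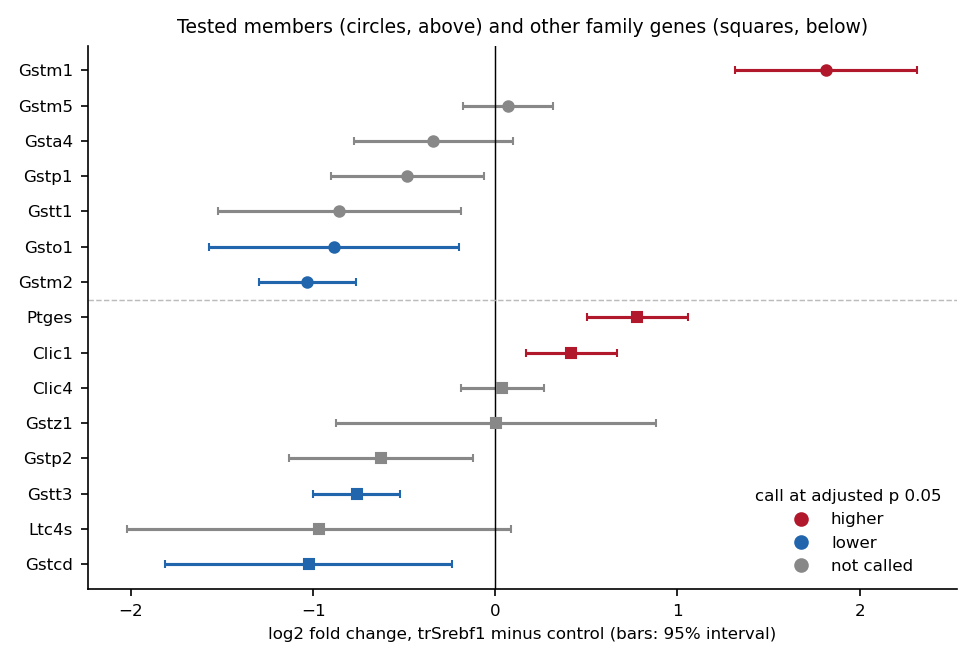
Log2 fold change (horizontal axis, trSrebf1 minus control) with its unadjusted 95% interval for the 7 tested members (circles, upper part) and the 8 tested genes of the list of other glutathione transferases and related proteins (squares, lower part); colour gives the call at an adjusted p of 0.05. Gstm1 at 1.82 stands apart to the right, Gstm5 at 0.07 lies on the zero line, and the intervals of Gstp1 and Gstt1 leave out 0 although neither was called.

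The summed level of the family hardly differed between groups, because Gstm5 made up most of it. The 10 members together gave 866, 989 and 1087 CPM in control libraries 1 to 3 and 917, 965 and 959 CPM in trSrebf1 libraries 1 to 3, with means of 980 ± 111 and 947 ± 26.0 (SD, n = 3 each). The trSrebf1 values lay inside the control range. Gstm5 made up 77.5% ± 4.26 of the control sum and 84.5% ± 1.03 of the trSrebf1 sum. The share of Gstm2 went from 15.2% ± 3.01 to 7.59% ± 0.66 and that of Gstm1 from 0.90% ± 0.40 to 3.15% ± 0.24. Without Gstm5 the other 9 members gave 236, 210 and 207 CPM in control and 150, 138 and 151 CPM in trSrebf1, a ratio of 0.673. Their mean went from 218 to 146 CPM, and Gstm2 alone went from 147 to 71.9 CPM. The fall of this sum was thus no larger than that of Gstm2, but the rest of it was mixed. Gstm1 rose from 8.50 to 29.8 CPM. The means of Gstp1 (21.6 to 15.4 CPM), Gsta4 (21.2 to 16.7), Gsto1 (8.17 to 4.42) and Gstt1 (7.89 to 4.38) were lower in trSrebf1, of which only Gsto1 was called. These sums carry no test.

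**Figure D3:**
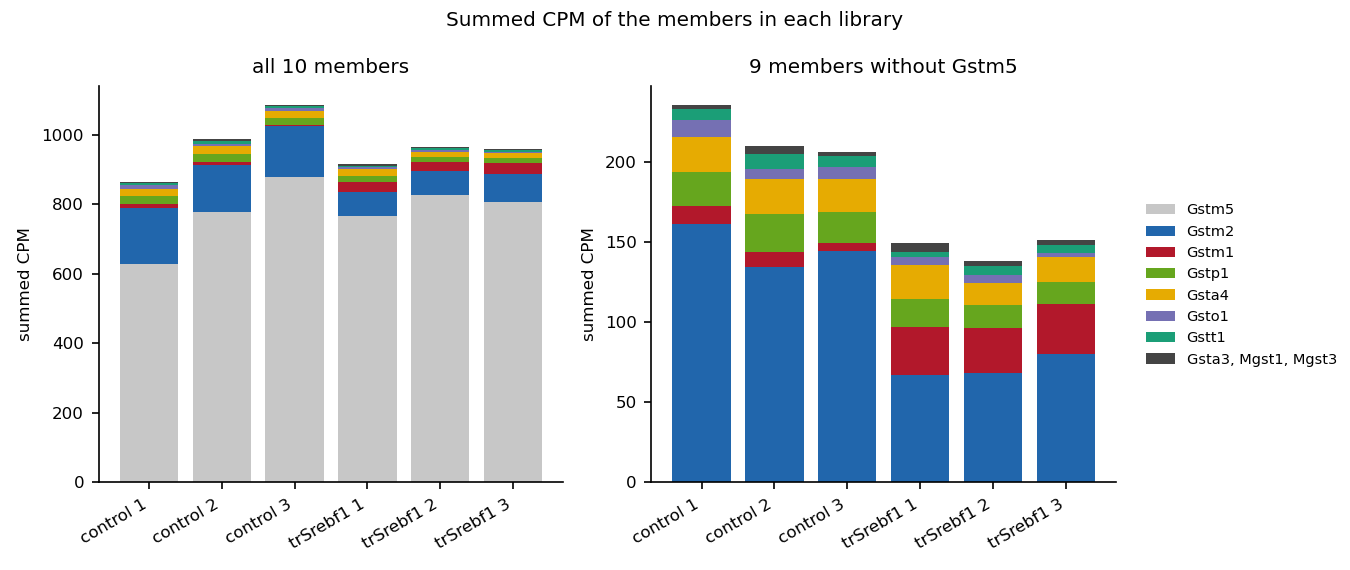
Summed CPM (vertical axes, linear from 0) of all 10 members (left) and of the 9 members other than Gstm5 (right) in each library, stacked by gene. The 10-member sums overlap between groups (866 to 1087 in control, 917 to 965 in trSrebf1), whereas the sums without Gstm5 do not (207 to 236 against 138 to 151). The difference on the right is no larger than the fall of Gstm2, from a mean of 147 to 71.9 CPM. The sum on the right also holds the rise of Gstm1, from 8.50 to 29.8 CPM.

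Tags are counted per transcript end and are not scaled by length, so levels of different genes on the CPM scale can be set side by side only as tag counts. In control the order among the members was Gstm5, then Gstm2 at 147, then Gstp1 at 21.6 and Gsta4 at 21.2, whose libraries overlapped. Gstm1 at 8.50, Gsto1 at 8.17 and Gstt1 at 7.89 followed, again with overlapping libraries, ahead of Mgst3 at 1.87, Mgst1 at 0.746 and Gsta3 at 0.676. In trSrebf1 Gstm1 at 29.8 was the third, above Gsta4 at 16.7 and Gstp1 at 15.4 in every library. Gsto1 at 4.42 and Gstt1 at 4.38 overlapped there, as they did in control.

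Of the other glutathione transferases and related proteins, 19 of 24 symbols had a row and 8 were tested, of which 2 were higher and 2 lower. Gstt3, the theta-class gene 2398 bases from Gstt1, fell by 0.76 on the log2 scale (SE 0.11, adjusted p = 4.60e-05). It stood at 202, 193 and 202 CPM in control and 105, 128 and 119 CPM in trSrebf1, far above Gstt1 in tags. Gstt3 shares 524 exonic bases with the annotated gene Gm20441 on the same strand, so its value may hold tags of both. Ptges, the microsomal prostaglandin E synthase that is related in sequence to Mgst1, rose by 0.78 (SE 0.13), from 202 ± 39.1 to 347 ± 26.4 CPM (SD, n = 3 each). Clic1, a chloride channel protein with a transferase-like fold, rose by 0.42 (SE 0.12, adjusted p = 0.0122). That call was lost with upper-quartile factors (0.0564) and when control library 2 (0.0703) or 3 (0.0784) or trSrebf1 library 3 (0.0533) was dropped, and the adjusted p spanned 0.00114 to 0.0784. Gstcd fell by 1.02 (SE 0.37, adjusted p = 0.0471), but its exons overlap Ints12 on the opposite strand. Its call was lost under DESeq2 (0.0768), limma-voom (0.0539) and the replicate block (0.0520), and when control library 1 (0.247) or 2 (0.0717) or trSrebf1 library 1 (0.148) or 3 (0.159) was dropped. The adjusted p spanned 0.0199 to 0.247. Gstk1, the mitochondrial and peroxisomal kappa enzyme, was not tested, with 6, 8 and 5 counts in control and 3, 0 and 1 in trSrebf1, and was named after its values were seen.

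Tags were counted for 18 genes of glutathione synthesis, precursor uptake, breakdown and recycling, while glutathione itself was not measured. Of these genes 14 were tested, and 7 were higher and 0 lower (median log2 fold change 0.41). Among all tested genes 17.2% were higher and 13% lower. At an unadjusted p under 0.05 the count lower was also 0 in edgeR, and 0 passed under DESeq2. With no filter on low counts, which also takes in the genes not tested here, 1 of the 18 genes was called lower. Slc7a11, the cystine importer whose product limits glutathione synthesis, stood at 17.3, 17.0 and 17.9 CPM in control and 55.7, 45.9 and 28.1 CPM in trSrebf1. It rose by 1.31 (SE 0.22, adjusted p = 2.29e-04). The neutral amino acid carriers Slc1a5 and Slc1a4 rose by 1.54 (SE 0.16) and 1.58 (SE 0.18), and Ggct, which acts in glutathione breakdown, by 2.08 (SE 0.38). The synthetic enzymes differed among themselves. Gclm, the modifier subunit of the rate-limiting ligase, rose by 0.77 (SE 0.17, exons overlap Gm17494 on the opposite and Gm6061 on the same strand), while the catalytic subunit gene Gclc had a log2 fold change of 0.45 (adjusted p = 0.263) and Gss one of -0.08 (adjusted p = 0.907). Gclc and Gss, like Gclm, were chosen for their place in the pathway and not by the naming rule.

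**Figure D4:**
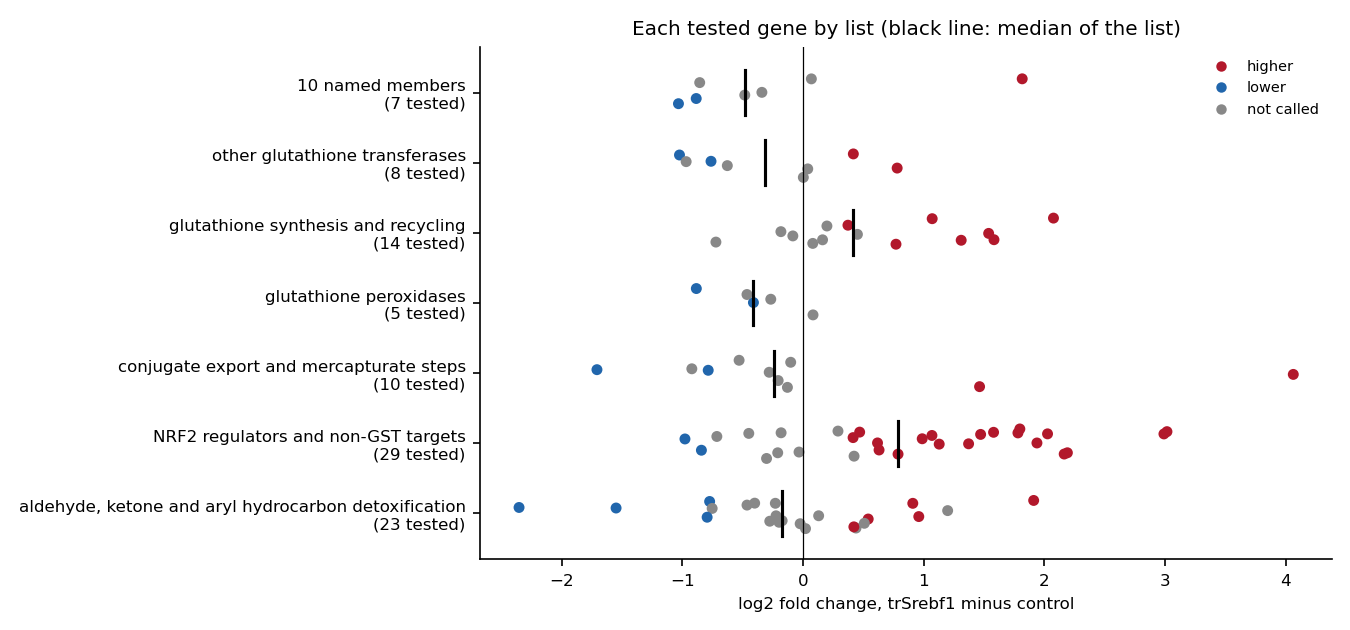
Log2 fold change (horizontal axis, trSrebf1 minus control) of each tested gene in the member set and in 6 lists of related genes (rows; vertical scatter within a row has no meaning); red and blue points were called higher and lower, and black lines are list medians. The NRF2 row (median 0.79) and the row of glutathione synthesis and recycling (median 0.41) lie to the right of the members (median -0.48).

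Of 8 glutathione peroxidase genes, which use glutathione to reduce peroxides, 5 had a row and were tested, and 0 were higher and 2 lower (median -0.41). None of these 5 peroxidase genes was higher at an unadjusted p under 0.05 in edgeR, and 0 were called higher under DESeq2. Gpx1, the main cytosolic enzyme, fell by 0.88 (SE 0.18, adjusted p = 8.83e-04), from 53.1 ± 9.62 to 28.7 ± 4.57 CPM (SD, n = 3 each). Gpx3, the secreted enzyme, fell by 0.41 (SE 0.13, adjusted p = 0.0266), a call lost when control library 1 (0.133) or trSrebf1 library 1 (0.0917) or 3 (0.119) was dropped, with adjusted p spanning 0.00692 to 0.133. Gpx8 and Gpx7, both of the endoplasmic reticulum, had log2 fold changes of -0.46 (adjusted p = 0.0776) and -0.27 (0.334). Gpx8 passed the threshold with upper-quartile factors (0.0342) and with control library 1 dropped (0.0196), and its adjusted p spanned 0.0196 to 0.333. Gpx4, which reduces lipid hydroperoxides in membranes and gave most tags of the list, had means of 1706 and 1807 CPM and was not called (log2 fold change 0.08, SE 0.10, adjusted p = 0.578); its transcript ends are nearly identical to those of pseudogenes. The summed level of the list was 1960 ± 41.9 CPM in control and 1988 ± 164 CPM in trSrebf1 (SD, n = 3 each). Gpx4 was named after its values were seen.

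Of 19 genes of conjugate export and the mercapturate pathway, 10 were tested, with 2 higher and 2 lower (median -0.24). Abcc1, a main exporter of glutathione conjugates, stood at 7.08, 8.51 and 10.9 CPM in control and 2.80, 1.78 and 3.43 CPM in trSrebf1, and fell by 1.71 (SE 0.34, adjusted p = 9.21e-04). Anpep, an aminopeptidase that acts on the later products, fell by 0.79 (SE 0.17, adjusted p = 0.00152). Ggt1, which takes the glutamyl group from glutathione and its conjugates at the cell surface, had 1, 0 and 3 counts in control and 21, 28 and 29 in trSrebf1, a ratio of 17.9 (counting interval 6.73 to 67.5). Ggt7 rose by 1.46 (SE 0.40, adjusted p = 0.00892), with exons that overlap Acss2 on the opposite strand over 197 bases, and its call was lost with trSrebf1 library 1 dropped (0.0693), the adjusted p spanning 0.00521 to 0.0693.

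NRF2 regulators and targets other than transferases were mostly higher, with 19 of 29 tested genes higher and 2 lower (median 0.79), against 17.2% and 13% of all tested genes. This list was drawn up with an earlier count on a like list known. It holds regulators such as Keap1 and pentose phosphate genes such as Pgd, and NRF2 activity was not tested. Nfe2l1, a relative of NRF2, rose by 1.94 (SE 0.12), Pgd of the pentose phosphate pathway by 2.16 (SE 0.12), the autophagy adaptor Sqstm1 by 1.47 (SE 0.11), with exons that overlap Mrnip on the opposite strand over 580 bases, and Ftl1, which has near-identical copies, by 1.13 (SE 0.12). The 2 that fell were the ferritin heavy chain gene Fth1 (-0.84, SE 0.12) and Ugdh (-0.98, SE 0.27), of which the first shares transcript-end sequence with pseudogenes and the other shares 158 exonic bases with Gm43552. Nfe2l2, which encodes NRF2, was not called (log2 fold change -0.18, SE 0.25, adjusted p = 0.635), and without trSrebf1 replicate 3 its sign turned (0.021). Keap1, which marks NRF2 for breakdown, rose by 0.62 (SE 0.11), with exons that overlap Gm16754 on the opposite strand over 510 bases. Nfe2l2, Keap1, Fth1 and Ugdh were named for their role or as members of a small count, after their values were seen. Gstm1 was the member whose call matched this list's more frequent direction, and Gstm2 and Gsto1 went the other way.

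In the list of aldehyde, ketone and aryl hydrocarbon detoxification 23 of 31 genes were tested, 5 were higher and 4 lower (median -0.17). Aldh9a1, an aldehyde dehydrogenase, rose by 1.91 (SE 0.15), and the glyoxalase genes Hagh and Glo1, which detoxify methylglyoxal with glutathione, rose by 0.91 (SE 0.11) and 0.42 (SE 0.10). Arnt, the partner of the aryl hydrocarbon receptor, rose by 0.54 (SE 0.13). Cyp1b1, a classic target of that receptor, fell by 2.35 (SE 0.37, adjusted p = 8.42e-05), from 9.56 ± 2.49 to 1.82 ± 0.55 CPM (SD, n = 3 each). The receptor gene Ahr fell by 0.79 (SE 0.23, adjusted p = 0.0151), a call lost when control library 2 (0.0550) or trSrebf1 library 2 (0.0552) or 3 (0.0647) was dropped, with adjusted p from 0.00712 to 0.0647. The other calls were Por, higher, and Aldh3b1 and Akr1b3, lower; Por was lost when control library 2 (0.0835) or 3 (0.0918) or trSrebf1 library 1 (0.145) was dropped (span 0.00124 to 0.145). Akr1b3, which has near-identical copies, was lost without each of the 6 libraries in turn and under 3 of the other alternatives (adjusted p spanning 0.0279 to 0.159). Exons of Glo1 and Ahr overlap noncoding genes on the opposite strand. Glo1, Ahr, Por, Aldh3b1 and Akr1b3 were named after their values were seen.

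**Figure D5:**
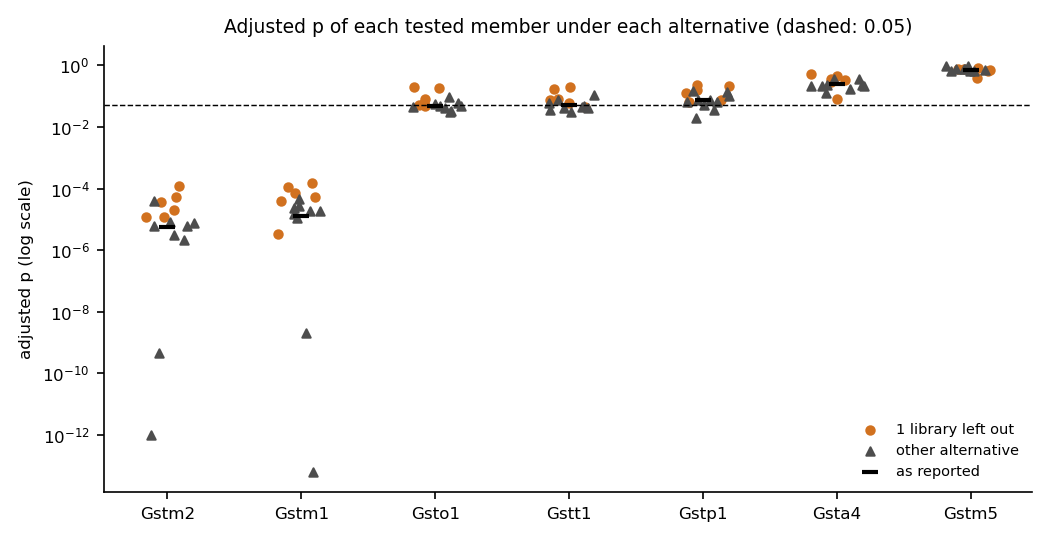
Adjusted p (vertical axis, log scale) of each tested member as reported (bar), with 1 library left out (orange circles) and under the other alternatives (grey triangles, with the summed pair of pi genes among those of Gstp1); the dashed line is 0.05. Gstm1 and Gstm2 lie at 1.50e-04 or below throughout, Gsto1, Gstt1 and Gstp1 lie on both sides of the line, and Gsta4 and Gstm5 lie above it throughout.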

How the data were processed

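The deposited tables hold whole-number counts of 3' tags per gene symbol, 1 table per library; per the submitters' processing notes Bowtie2 2.2.5 and build mm10 were used, in a role those notes leave unsaid. Counting tool, annotation and strand setting: not given in the sources used here. The members and gene lists were chosen with earlier results of these data known, so no pattern already shown in these data is independent support.

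From the counts, edgeR 4.0.16 in R 4.3.3 fitted the group as the only term (glmQLFit with the robust option, then glmQLFTest, prior count 0.125). TMM factors were computed on genes kept by filterByExpr at min.count 10 and min.total.count 15. Standard errors are the log2 fold change divided by the square root of F, and 95% intervals use the fit's degrees of freedom, unadjusted. DESeq2 1.42.0, limma 3.58.1 (voom), other factors and filters, a replicate block, a prior count of 2, leaving out Ctsd or each library were alternatives. All 10 members were named, and from each list up to 4 tested genes of smallest p; exceptions are marked. Gene positions and transcript ends are from GENCODE release M21, and promoter windows from RefSeq GRCm38.p6. Within a group, chi-square over degrees of freedom between libraries was 4.52 to 8.13, so no library was a copy of another. Same-numbered libraries had correlations of 0.00525, -0.112 and -0.0538 between their deviations from the group means, so the numbers were not taken as pairs.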

Additional observations from a re-analysis of the deposited data

How the results depend on the processing

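The rise of Gstm1 and the fall of Gstm2 kept their direction and side of the threshold under all alternatives run, and the member count higher was 1 throughout. Of 112 pairs of a member and an alternative, 93 kept both, 8 lost a call (all Gsto1), 8 gained one (Gstt1 and Gstp1) and 3 turned in sign. Those 3 were Gstm5 with upper-quartile factors (-0.013), with total counts (-0.0071) and without control replicate 1 (-0.048); with 1 library left out Gstm5 ranged from -0.048 to 0.17. The members lower, 2 as reported, were 4 with upper-quartile factors, 1 under DESeq2, 1 with no filter and 1 with the replicate block. They were 3 with RLE factors, total counts, limma-voom, the filter of 5 CPM in 3 libraries or Ctsd left out. With 1 library left out they were 1 or 3, so none of these settings gave 2. The replicate block gave 1646 genes higher and 1174 lower, against 1755 and 1328 without it, and not every library correlated best with its own number. In the list of other transferases and related proteins, 2 were higher as reported, the related genes Ptges and Clic1. The count was 1 with upper-quartile factors and 1 to 2 with 1 library left out. Those lower in that list, 2 as reported, were 3 with upper-quartile factors, total counts or the filter of 5 CPM in 3 libraries. They were 1 under DESeq2, 1 with the block and 1 to 3 with 1 library left out. Genes lower in the list of glutathione synthesis and recycling, 0 as reported, were 1 with no filter. Peroxidase genes lower, 2 as reported, were 3 with upper-quartile factors and 1 to 2 with 1 library left out. Export genes higher were 0 at 5 CPM in 3 libraries and 1 to 2 with 1 library left out. Aldehyde genes lower were 2 to 3 with 1 library left out. The summed CPM of the members in trSrebf1, 947, was 920.03 with upper-quartile factors and 979 with Ctsd left out. The median of all genes was -0.10 with upper-quartile factors. The cause of these shifts was not tested. Depth limits Gsta3, Mgst1 and Mgst3, at 2 to 30 counts per group.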

Other observations

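Genes near the members on the chromosome were looked at after the members' values were seen. Of 42 tested genes within 200 kb of a member, 16 were higher and 5 lower in trSrebf1, so 50.0% were called where 30.2% of all tested genes were, a description of neighbours that share loci. Near the mu cluster Ampd2, an AMP deaminase, rose by 0.97 on the log2 scale (SE 0.19, adjusted p = 6.87e-04) and Atxn7l2 by 0.73 (SE 0.15). Csf1, the macrophage growth factor, fell by 0.76 (SE 0.13, adjusted p = 2.58e-04). Gnai3 and Ahcyl1 were not called (adjusted p = 0.849 and 0.495).

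Around the theta genes Gstt1 and Gstt3, the latter of which fell, 7 other genes were tested, of which 5 were higher, 1 lower and 1 not called. The higher ones were Chchd10, Mif, Ggt1, Ddt and Cabin1. Chchd10, a mitochondrial protein gene, rose by 2.92 (SE 0.41, adjusted p = 2.46e-05). The protease gene Mmp11 fell by 1.66 (SE 0.39, adjusted p = 0.00307). Beside Mgst3, which had too few counts to be tested, Aldh9a1 lies 3434 bases away and rose by 1.91 (SE 0.15), and Uck2, a uridine kinase, rose by 1.01 (SE 0.11). Each called gene named here kept its call under every alternative in which it was tested, except Ddt (10 of 14) and Cabin1 (14 of 15).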
